A study of Caenorhabditis elegans with 2 samples.

Results

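The RNA gene rpr-1 and its host gene ints-8 hold one of the strong binding sites of BED-1 in the young adult worm. The rpr-1 gene makes the RNA of RNase P, and ints-8 makes a subunit of the Integrator complex. The members described here are all ranked BED-1 peaks with a summit inside rpr-1 or ints-8 or within 1000 bases of either, 16 of 120637 peaks called on both replicates together. The locus was chosen by measured values, namely the high signal of its strongest peak and the presence of that peak in all 4 final peak lists. Those values are therefore given as a description with no test.

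BED-1 of the nematode Caenorhabditis elegans has a BED finger, a zinc-binding fold that contacts DNA and is shared with some chromatin proteins and transposases. Its sites were mapped by chromatin immunoprecipitation with sequencing in strain RW12201, whose allele is st12201[bed-1::TY1::EGFP::3xFLAG] V, in which CRISPR placed the tags into the worm's own bed-1 gene. An antibody against green fluorescent protein pulled down chromatin sheared by sonication, from whole young adults of 63 hours that had been synchronised by starving first-stage larvae. Both samples were biological replicates of this 1 group, and no control sample was analysed here. As whole animals were used, each peak is a mixture over all their cells. Each list is the authors' own: a ranked list holds all peaks that were compared, and a final list holds those the authors kept. The irreproducible discovery rate (IDR) of a peak is low where its ranks in both compared sets were high together. The limit used here was 0.01. The compared sets were matched to the 2 replicates only in the ranked list behind the authors' conservative list. In the main and single-replicate lists, the IDR is therefore not read as agreement between the replicates. Signals are the authors' values, on a scale not given in the sources used here, and the read depth is unknown.

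RNase P is the enzyme that removes the leader at the 5' end of precursor tRNAs, and in it the RNA does the catalysis. RNase MRP is its relative, with an RNA of its own and many of the same proteins, and it takes part in processing the precursor of ribosomal RNA. In many animals both RNAs belong to the small set of genes that RNA polymerase III reads from promoters upstream of the start. Such promoters have a TATA box and, before it, an element shared with spliceosomal RNA genes. Which polymerase reads rpr-1 was not tested here. Integrator is a nuclear complex bound to RNA polymerase II that cuts nascent RNA, and it is best known for making the 3' ends of spliceosomal small nuclear RNAs.

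In the genome build ce11 (WBcel235), rpr-1 (WBGene00045238) covers I:13463955-13464207 on the plus strand, which is 253 bases. ints-8 (WBGene00013021) covers I:13455356-13470371 on the minus strand, which is 15016 bases. So rpr-1 lies antisense within ints-8, in intron 5 of the long transcript. That intron spans 2023 bases and is the third longest of 9, whose lengths run from 51 to 3330 bases. Its edges lie 1216 bases to the left of rpr-1 and 554 bases to the right, so that no base of rpr-1 is in an ints-8 exon. A shorter ints-8 transcript of 6 exons starts at 13464846, and the same intron is its first. Besides rpr-1, the annotation has within 1000 bases of ints-8 the protein-coding gene Y48G10A.3, the non-coding RNA gene Y48G10A.9 and, inside an ints-8 intron, the piRNA gene 21ur-15556.

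The strongest peak of the locus sat on the start of rpr-1. In the main list it covered I:13463803-13464062, which is 260 bases, with a signal of 195 and an IDR of 0.000254. Its summit at 13463933 was 22 bases before the first base of rpr-1, and the peak ran over the first 108 bases of the gene, 42.7% of its length. The same summit was 829 bases from the nearest ints-8 exon edge, 913 bases downstream of the second ints-8 start and 6438 bases downstream of the first. The nearest other ranked peak was 835 bases away. Position within the peak is coarse, since 582 of the 589 final peaks (98.8%) were 260 bases wide.

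Each replicate had this peak in its own list. Replicate 1 had a signal of 84.0 and an IDR of 0.00108, with the summit on base 12 of rpr-1. Replicate 2 had a signal of 115 and an IDR of 0.000374, with the summit on base 8. The replicates averaged 99.7 ± 22.2 (SD, n = 2), and their summits were 4 bases apart, 11 and 7 bases after the first base of the gene. The replicate summits thus lay just inside rpr-1, and the summit of the main list just before it.

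The other 15 ranked peaks of the locus were weak. Their signals ran from 2.59 to 40.4 with a median of 22.0, and 7 of them exceeded the median of all ranked peaks, 23.5. Of these peaks, 7 had their summit in an ints-8 exon, 7 in an intron and 1 downstream of the gene. Exons make up 3114 bases of ints-8, which is 20.7% of its length. None reached the IDR limit, so 1 of the 16 members was in the main final list, against 0.488% of all ranked peaks. Over the whole main ranked list, 704 peaks reached the limit and 589 were final, so reaching it was not enough. In the ranked list behind the authors' conservative list, 1 of 19 peaks of the locus was final, against 0.432% of all its peaks. In the lists of single replicates it was 1 of 6 peaks in replicate 1, against 0.157% of all its peaks, and 1 of 9 in replicate 2, against 0.161%. As the rule used presence in the final lists, nothing is read from these shares.

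Few of the weak peaks had a partner in both replicates' own ranked lists, which are shorter than the main one. Within 130 bases of their summits, 2 had a peak in the list of replicate 1 and 6 in that of replicate 2, while 8 had one in neither. In the ranked list behind the conservative list, 13 of the 15 weak peaks had a signal in each of the 2 compared peak sets. Those signals ran from 2.44 to 18.8 in the first set and from 2.96 to 30.7 in the second. The peak in exon 1 of ints-8 was the only one with a partner in both single-replicate lists. It was also the strongest of the 15, with a signal of 40.4 and an IDR of 0.111, and its summit was 66 bases after the ints-8 start. Its signal was 17.5 in replicate 1 and 26.6 in replicate 2. The other peaks above 30 were those in exon 8, with a signal of 36.1, and in exon 10, with 34.2. At the weak end, the peak nearest to rpr-1, in exon 5 beside the second ints-8 start, had a signal of 2.59. The peak on rpr-1 had 4.82 times the signal of the second strongest peak of the locus in the main list. The corresponding ratio was 4.41 in replicate 1, where a peak in exon 6 came second with 19.02, and 3.76 in replicate 2, where a peak in intron 9 came second with 30.7.

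**Figure D1:**
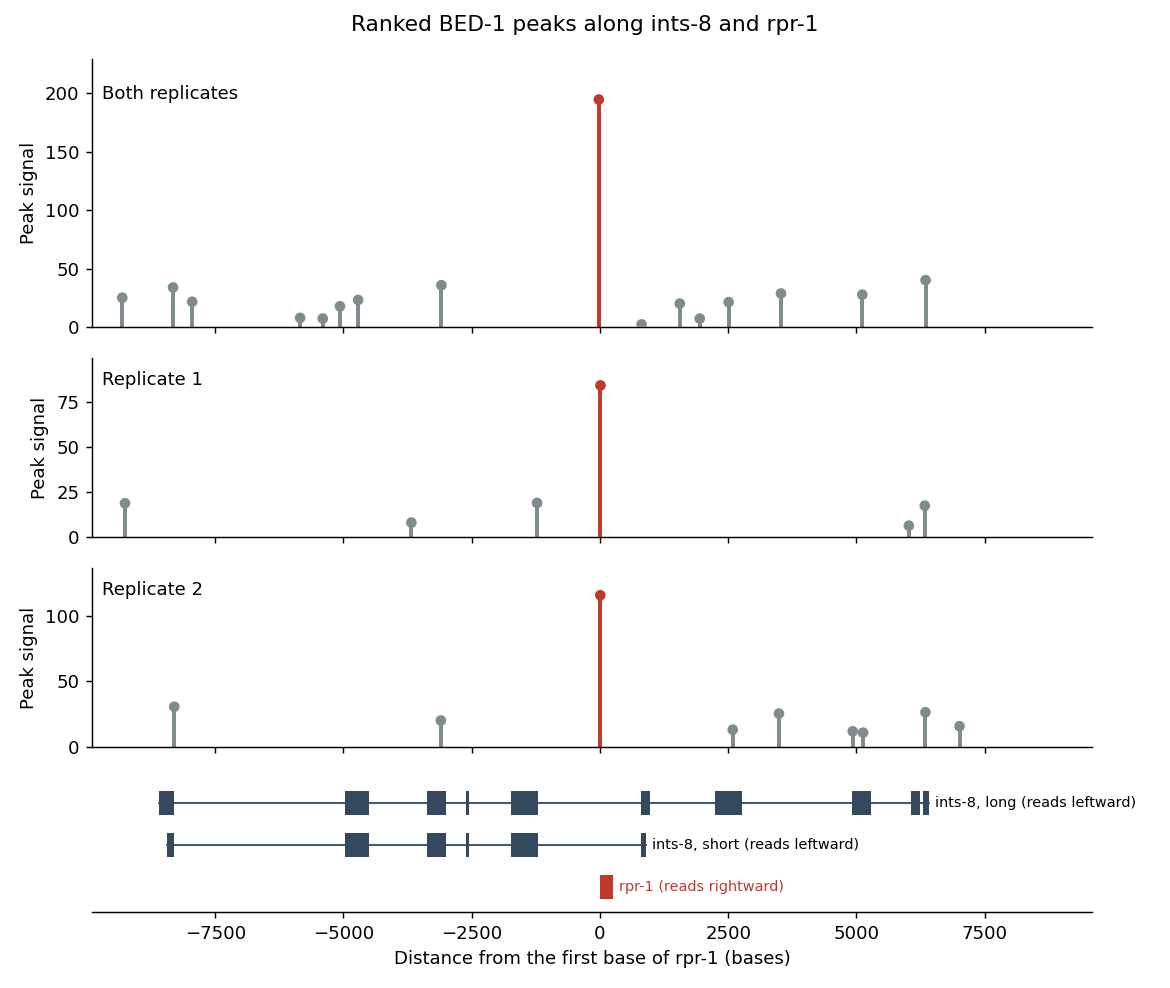
Signal of each ranked BED-1 peak (vertical lines ending in points) against its distance in bases from the first base of rpr-1, for both replicates together and for each replicate's own list, each panel on its own signal scale. The models below show ints-8 exons as boxes and rpr-1 in red. The red peak at rpr-1 reaches 195, 84.0 and 115, and the strongest grey peak of each panel reaches 40.4, 19.02 and 30.7.

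The start of ints-8 itself can be set beside other protein-coding starts. Its peak of 40.4 was stronger than 85.96% of the 13016 ranked peaks with a summit within 200 bases of a protein-coding start, whose median was 24.0 (interquartile range 15.5 to 33.9). It was not final, and neither were most peaks at starts: 84 of the 13016 were, or 0.645%. Those 84 had a median signal of 75.8. At the edge of the 1000-base rule, the outermost peak counted was 714 bases from ints-8 with a signal of 25.5 and an IDR of 0.396. The next peak outside it was at 1753 bases, with a signal of 26.5 and an IDR of 0.408.

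Within the main final list the rpr-1 peak ranked 11 of 589 by signal, at 2.50 times the list's median of 77.9. On the same chromosome it ranked 2 of 77. It was also 11 of 523 in the conservative list. In the single-replicate lists it ranked 17 of 91 for replicate 1 and 8 of 99 for replicate 2, so that 81.3% and 91.9% of those peaks were lower. Its signal was 1.34 and 1.72 times the median of the final peaks in replicates 1 and 2. All 4 final lists shared 47 of the 589 peaks (7.98%), and all 10 peaks stronger than that at rpr-1 were among them. The ranked list also held 40 stronger peaks that the authors did not keep, so there the rpr-1 peak was number 51.

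The difference between replicates at rpr-1 was of a size usual for final peaks. On the log2 scale its signal in replicate 1 over replicate 2 was -0.46. The median of that ratio was -0.17 over the 586 final peaks that had both values, with an SD of 0.67 and an interquartile range of -0.53 to 0.18. Relative to the median, rpr-1 was thus at -0.29, and 346 final peaks (59.0%) lay further away. These ratios came from the authors' table of both peak sets. In that table the first set matched the list of replicate 1 in coordinates and signal for 53784 of 121039 peaks, and that of replicate 2 for 0. The second set matched replicate 2 for 56388 peaks and replicate 1 for 0.

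**Figure D2:**
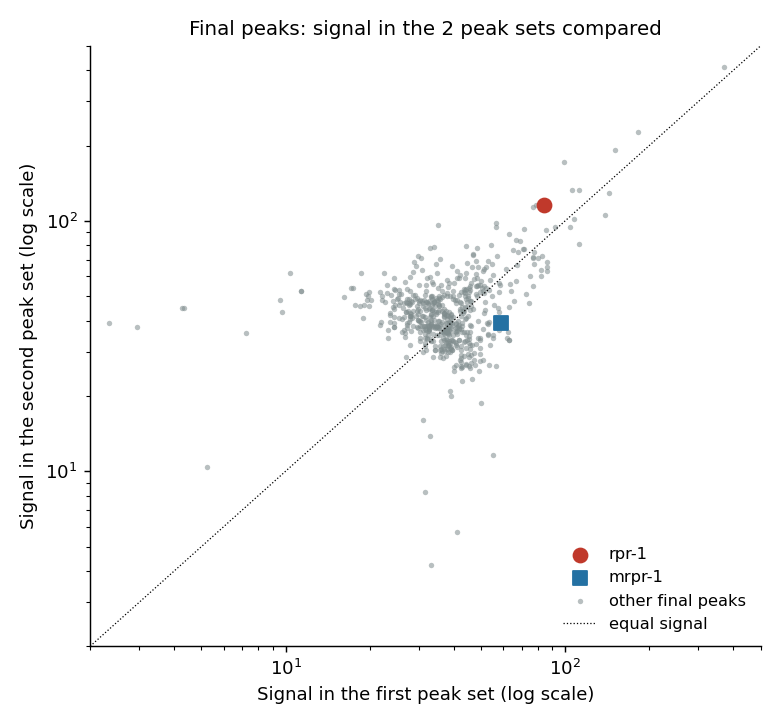
Signal of each final peak in the first and second peak sets compared by the authors, both on log axes, with rpr-1 (red circle), mrpr-1 (blue square) and the line of equal signal. The peak at rpr-1 lies at 84.0 and 115, among the strong peaks at the upper right, and that at mrpr-1 at 58.8 and 39.0, on the other side of the line.

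The final peaks closest to rpr-1 in strength were of mixed kinds. Just above it came peaks in cmk-1, which encodes a calcium/calmodulin-dependent kinase, with a signal of 241, near the F-box gene fbxa-190 with 209, and beside the small nucleolar RNA (snoRNA) gene W03C9.9 with 200. Just below it came peaks near mog-4 (194.6, against 194.8 at rpr-1), a gene of the switch from sperm to oocytes that encodes an RNA helicase, near tasp-1 (194) and in cutl-18 (187). In the signals of both replicates, the nearest to rpr-1 was the tasp-1 peak, with 78.8 in replicate 1 and 115 in replicate 2, at a distance of 0.09 on the log2 scale. The next were W03C9.9 (distance 0.13), cutl-18 (0.31), C46C2.7 (0.33) and a peak 1838 bases from srv-14 (0.39). All were in the 4 final lists. Among these 8 peaks, 2 lay within 200 bases of a structural RNA gene, at W03C9.9 and at the snoRNA gene T03F7.8 beside the cutl-18 summit. The other 6 lay more than 4000 bases from any. Structural RNA genes are here all tRNA, snoRNA, small nuclear RNA (snRNA) and rRNA genes, with rpr-1 and mrpr-1 added by name. Other genes annotated only as non-coding RNA, such as the Y RNA and signal recognition particle RNA genes, are not among them.

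The sequence under the rpr-1 peak was rich in G and C and occurs once in the genome. Over 200 bases around the summit the GC content was 62%, against a median of 46% for final peaks and 38% for ranked peaks. Only 6 final peaks were higher. The summits of the single replicates gave 59% and 60%. The 8 final peaks with a GC content of 62% or more, rpr-1 included, had a median signal of 71.2. The part of GC content in the signal of rpr-1 was not tested. All 31-base words in the rpr-1 window occurred once in the genome, as in 369 of the 589 final windows (62.6%). Of the 10 stronger final peaks, 4 had only such words, and among peaks of this kind rpr-1 had rank 5. Of the 8 final peaks closest to rpr-1 in strength, 3 had only such words. At the peaks near fbxa-190 and srv-14, 14.1% and 12.9% of the words occurred once. None of the rpr-1 window was repeat-masked.

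**Figure D3:**
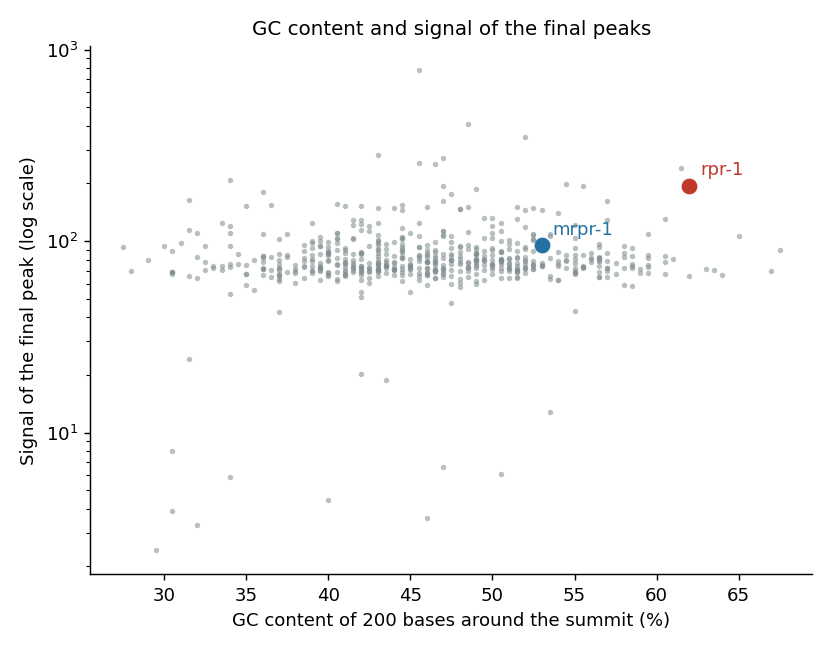
GC content (percent, horizontal axis) of 200 bases around the summit and signal (log vertical axis) of each of the 589 final peaks, with rpr-1 in red and mrpr-1 in blue. The rpr-1 peak stands at 62% and 195, to the right of the final median of 46%, and mrpr-1 at 53% and 94.8.

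Of 6 motifs looked for on both strands, up to 100 bases from a summit, none was found at rpr-1. The word TATCGATA was in 0 of the 589 final windows and 0.286% of ranked ones. The word CGATA, which overlaps it, was in 17.3% of final and 19.7% of ranked windows. The tRNA-type promoter cores differed more between the lists. The box A core (TGGC, any 2 bases, AGTGG) was in 3.57% of final and 0.337% of ranked windows, and the box B core (GGTTCGA, any 2 bases, CC) in 7.98% and 0.606%. The short box B word TTCGA, which overlaps that core, was in 38.7% and 37.1%, and TATAAA in 11.4% and 16.8%. The absence of these letters says only that they are not in this window.

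The gene of the sister RNA, mrpr-1 (RNase MRP RNA, WBGene00045095), had a final peak too. It lies at II:7200233-7200418 on the plus strand, 186 bases in no host gene, 131 bases from the protein-coding gene pcrg-1. Its peak, II:7200147-7200406, had a signal of 94.8 and an IDR of 0.00141, with the summit on base 45 of the gene, and ranked 121 of 589. The signal was 58.8 in replicate 1, with the summit on base 25, and 39.0 in replicate 2, with the summit on base 62. The peak was in the conservative list and in the list of replicate 1 but not in that of replicate 2, where its IDR was 0.258. The rpr-1 peak was 2.05 times as strong in the main list, 1.43 times in replicate 1 and 2.96 times in replicate 2. The order was the same in both replicates, and the size of the ratio differed between them.

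Upstream of their starts, both RNA genes share a stretch. The best ungapped match of 25 bases between the 100 bases before rpr-1 and those before mrpr-1 had 19 identical bases. It lay 71 to 47 bases before rpr-1 and 73 to 49 bases before mrpr-1. The last word TATA after it had its first base 28 bases before rpr-1 and 30 bases before mrpr-1. That is 19 bases after the end of the stretch in each. In mrpr-1 earlier TATA words run into this one, so the equal spacing rests on taking the last. The Y RNA gene yrn-1, whose RNA binds the Ro protein, also has overlapping TATA words, the last at 28 bases upstream. It matched the mrpr-1 stretch at 17 of 25 bases, again 71 to 47 bases upstream. The genes for the RNA of the signal recognition particle (SRP), which guides secreted proteins to the membrane, matched it at 11 to 14 bases. Shown are the 100 bases before the start of mrpr-1, of yrn-1 and of srpr-2.2, the SRP RNA gene with the strongest peak. With 17 bases, yrn-1 falls short of the 18 asked for in the search below. The sequences are from RefSeq, build WBcel235, each 5' to 3' on the strand of its gene. Capitals mark the stretch in mrpr-1, its best match in yrn-1, and the last TATA. The places are chrII:7200133-7200232 (plus), chrIV:7499408-7499507 (plus) and chrIII:5031709-5031808 (minus).
mrpr-1: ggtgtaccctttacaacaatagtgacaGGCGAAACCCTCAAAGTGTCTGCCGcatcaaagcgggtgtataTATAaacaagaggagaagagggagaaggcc
yrn-1: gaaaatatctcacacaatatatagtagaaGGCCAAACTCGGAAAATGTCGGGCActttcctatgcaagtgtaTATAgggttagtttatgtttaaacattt
srpr-2.2: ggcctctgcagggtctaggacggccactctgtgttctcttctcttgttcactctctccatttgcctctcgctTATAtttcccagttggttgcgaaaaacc

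No BED-1 peak was found at yrn-1, whose best match of 17 of 25 bases falls short of the 18 asked for below. In the ranked lists of the main calls and of each replicate, no peak lay within 200 bases of yrn-1, which also sits antisense in an intron, that of F55G1.15. The 5 SRP RNA genes matched at only 11 to 14 bases. In the main list each had a ranked peak within 200 bases, and none had a final one. In the single-replicate lists, srpr-1.2 had no ranked peak in replicate 1 and srpr-3 none in replicate 2. The strongest in the main list was at srpr-2.2, with a signal of 69.5 and an IDR of 0.455. That gene lies antisense in an intron of klp-6. The others were srpr-2.1 with 65.0, srpr-1.1 with 58.8, srpr-3 with 53.9 and srpr-1.2 with 45.7. The lowest IDR among them was 0.0239, at srpr-2.1. So 2 of 8 genes on the list of RNA polymerase III genes with upstream promoters had a final peak, rpr-1 and mrpr-1, against 10.3% of the 1109 structural RNA genes at the same 200 bases and 0.963% of 24813 non-coding RNA genes of all kinds. Of ranked peaks within 200 bases of a non-coding RNA gene, 1.87% were final. As rpr-1 was chosen for its final peak, nothing is read from the share of the list, in which mrpr-1 was the only other gene called. U6 genes, which belong to the same promoter class, were not used here.

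Like stretches were also looked for around the ranked peaks. At 18 or more of 25 bases, on either strand in 300 bases around the summit, the mrpr-1 stretch was matched in 6 of 589 final peaks (1.02%) and in 550 of 120048 other ranked peaks (0.458%). Both peaks that defined it are among the 6. Without them it was 4 of 587 (0.681%). Those 4 were at the snRNA gene F54D8.7 with a signal of 151, at the snoRNA gene F59C6.15 with 114, near clec-260 with 78.6 and in nfki-1 with 71.6. Upstream of structural RNA genes, on the strand of the gene, it was found in 35 of 1109. These were 21 of 346 snoRNA genes, 12 of 129 snRNA genes and 0 of 612 tRNA genes, with rpr-1 and mrpr-1. Of the 35, 4 had a final peak within 200 bases (11.4%), against 10.3% of all 1109 structural RNA genes. Without rpr-1 and mrpr-1, it was 2 of 33, against 112 of 1107 (10.1%). With the rpr-1 stretch as the query, 58 of the 1109 genes matched, among them 33 snoRNA and 23 snRNA genes, and 7 had a final peak. Without rpr-1 and mrpr-1, that was 5 of 56. These values describe letters only, and the stretch was chosen after the sequences were seen.

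The protein subunits of RNase P and RNase MRP had no final peak. Within 1000 bases, 0 of the 7 protein genes on the list were called, against 3.25% of 19985 protein-coding genes, so that the 2 called genes of all 9 were the RNA genes rpr-1 and mrpr-1. With so few genes and so small a share over all genes, the 0 is not read as a result. Of the RNA genes, rpr-1 was itself chosen for its final peak. Of the 7 protein genes, 6 had ranked peaks, the strongest of each between 29.6 and 57.6 with a median of 38.4. The highest was at popl-4, for the subunit p29, with a signal of 57.6 and an IDR of 0.0408. The overlapping genes popl-7 and Y62E10A.24, which RefSeq annotates as the subunit p20, shared a peak of 43.0. The strongest peak was 33.8 at popl-1, 31.3 at popl-5 (the subunit POP5) and 29.6 at Y37E11AM.4. The gene H35B03.2, for the subunit p30, had no ranked peak in the main list. The final peak at mrpr-1 was 1.65 times as strong as that at popl-4.

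Among Integrator genes, ints-8 alone had a final peak, and that was the one on rpr-1. That is 1 of 11 genes, against 3.25% of all protein-coding genes by the same rule. As the locus was chosen for that peak, nothing is read from this share. The other 10 had ranked peaks only, the strongest of each between 33.8 and 59.6 with a median of 45.5. The highest of these was at ints-5 with a signal of 59.6, followed by ints-1 with 55.2 and ints-3 with 54.0, whose IDR of 0.0306 was the lowest of the 10. The genes ints-11, for the RNA-cutting subunit, and ints-9, for its close relative, had 45.6 and 42.7. At the low end stood ints-6 with 33.8. The peak at the start of ints-8, with 40.4, was lower than the strongest peak of 9 of these 10 genes.

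**Figure D4:**
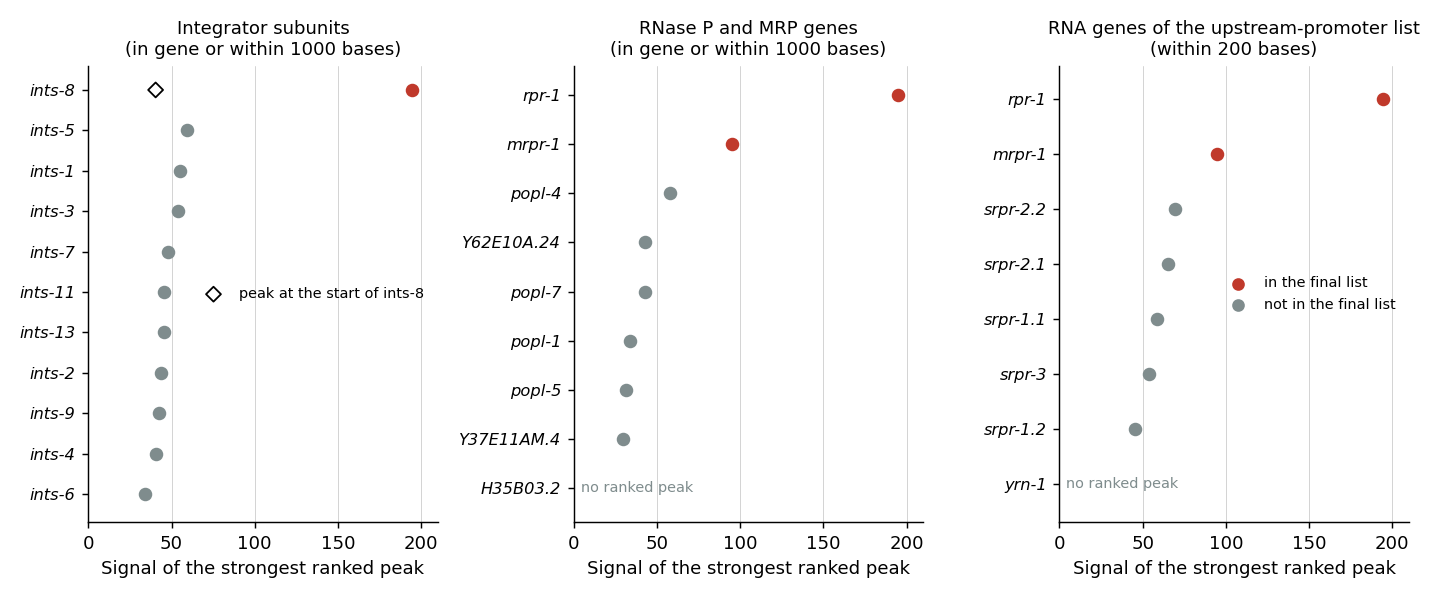
Signal of the strongest ranked peak (horizontal axis) at each gene of 3 lists, red where it is in the final list. The point for ints-8 is the peak on rpr-1, and the open diamond is the peak at the start of ints-8, at 40.4. Red points are those of the rpr-1 peak at 195 and of mrpr-1 at 94.8, and the grey points of all 3 lists lie between 29.6 and 69.5.

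The setting of rpr-1, a structural RNA gene inside an intron, was shared with many RNA genes, most of them without a final peak. Of 522 structural RNA genes within introns of protein-coding genes, rpr-1 included, 45 had a final peak within 200 bases (8.62%), against 66 of 526 such genes outside protein-coding genes, mrpr-1 included (12.5%). Without those 2 genes it was 44 of 521 (8.45%), against 65 of 525 (12.4%). Counting rpr-1, 171 of the intronic genes run antisense to the host, and 22 of these had a final peak (12.9%). Without rpr-1, which was chosen for its final peak, it was 21 of 170 (12.4%). Of the 351 intronic genes that run with a host, 23 had a final peak (6.55%). Over all structural RNA genes without rpr-1 and mrpr-1 it was 112 of 1107 (10.1%). The 42 final peaks at intronic RNA genes had signals from 8.02 to 348 with a median of 84.7. The rpr-1 peak was the third strongest, after those at the snoRNA genes C51F7.3 with 348 and ZK994.7 with 281, and was followed by T03F7.8 with 187. In all 4 final lists, 9 of the 522 genes had a peak, against 6 of the 526 genes outside protein-coding genes. As rpr-1 was chosen for its presence in all 4 lists, it is among the 9 by rule.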

How the data were processed

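Peak lists from BED-1 ChIP-seq of 2 biological replicates were used as deposited. The deposited signal, the score from 0 to 1000 and the −log10 of the local and global IDR per peak are the authors' values. Peaks were called by the authors per sample and on pooled samples. Neither peak caller, aligner nor signal scale is given in the sources used here. The build is ce11, per the labels. With no read counts, the depth is unknown and intervals that need it are left out.

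Peaks were joined to genes of Ensembl release 115 with Python 3.11.15, pandas 2.3.3 and numpy 2.4.6, and figures were drawn with matplotlib 3.10.9. Counting steps were tested on simulated data. A summit within 1000 bases of a protein-coding gene, or 200 bases of an RNA gene, was taken as near it. No test was run, since the locus was chosen on these signals and there is 1 group. The members and lists were chosen with earlier results of these data known. Genes were named by rule: the members, listed genes with a final peak, the final peaks next to rpr-1 in signal or in both replicates, and genes within 1000 bases of ints-8. Further listed genes are named to show each range. The 25-base stretch was chosen after the sequences were seen.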

Additional observations from a re-analysis of the deposited data

How the results depend on the processing

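Of 50 alternatives over 12 results, 36 stayed within the spread or within 1.5 times the count, and 14 moved. No sign turned apart from that of the summit's offset. With 1 replicate at a time, the locus had 6 to 9 ranked peaks in place of 16, the share of final peaks below rpr-1 was 81.3% to 91.9% in place of 98.1%, and its summit was 7 to 11 bases after the gene's first base in place of 22 before it. Likewise, final peaks were found at 1 to 2 of the RNase P and MRP genes, at 1 to 2 of the RNA polymerase III genes, and at 12 to 14 intronic RNA genes in place of 45. Without replicate 1, mrpr-1 was the gene lost from both lists. The GC content was 67% over 100 bases and 56% over 300. At an IDR of 0.05 over all ranked peaks, 2 Integrator genes were called. Within 1000 bases, 68 intronic RNA genes had a final peak. With the rpr-1 stretch as the query, chosen after seeing the data, 10 final peaks matched in place of 6, and 58 structural RNA genes in place of 35. The cause of these moves was not tested, other than that single-replicate lists are shorter. No paired analysis was possible because there is 1 group. With 2 replicates, no control sample and unknown depth, small differences in signal cannot be resolved.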
